A study of Rattus norvegicus with 8 samples.

Results

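The genes described here are 6 glycolytic enzymes, Hk2, Tpi1, Gapdh, Pgk1, Eno1 and Pkm, and the lactate dehydrogenase genes Ldha and Ldhb, 8 of the 21549 genes listed in each library. The rule lists them by Ensembl ID and uses no measured value. The files list IDs without names, and the gene table used here matched 0 of the 21549 IDs. The symbols are therefore those that the selection pairs with the IDs: ENSRNOG00000006116 for Hk2, ENSRNOG00000015290 for Tpi1, ENSRNOG00000018630 for Gapdh, ENSRNOG00000058249 for Pgk1, ENSRNOG00000017895 for Eno1, ENSRNOG00000011329 for Pkm, ENSRNOG00000013009 for Ldha and ENSRNOG00000013000 for Ldhb. RNA was sequenced from hearts of Sprague Dawley rats, an outbred laboratory strain, aged 3 months. The chronic hypoxia group held 4 rats exposed to reduced oxygen, and the control group held 4 rats in normoxia. No transgene, deletion or drug is named for either group. Each library was taken as 1 animal, since the protocol counts 4 rats in each group. Neither the degree nor the duration of hypoxia is stated in the sources used here, nor are the rats' sex and the region of heart sampled.

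Glycolysis splits glucose into pyruvate and yields ATP without oxygen. Lactate dehydrogenase then turns pyruvate into lactate and returns the NAD+ that the pathway needs. The enzyme is a tetramer of A subunits from Ldha and B subunits from Ldhb. The heart is known for its high content of B subunits, whereas A subunits prevail in skeletal muscle. In many mammalian cells low oxygen stabilises hypoxia-inducible factor (HIF), which binds short DNA motifs and raises transcription of several glycolytic genes.

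Library totals ran from 26229304 to 32160710 counts in hypoxia and from 28199908 to 31287841 counts in normoxia. The hypoxia libraries were not alike. On the second principal component of log2 CPM, with 20.9% of the variance, hypoxia libraries 1 and 2 stood at 37.9 and 29.8, hypoxia libraries 3 and 4 at −29.3 and −27.9, and the normoxia libraries between −8.10 and 1.01. Counts came from shorter gene models in hypoxia, with a mean model length per count of 2220 to 2375 bp, against 2596 to 2628 bp in normoxia. Markers of heart cells and of other cell types could not be looked up without gene names, so the labelled tissue was not checked against them.

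Transcripts of 7 of the 8 genes rose in the hypoxic hearts, each by less than 2-fold (Benjamini-Hochberg adjusted p under 0.05 in edgeR's quasi-likelihood test, with libraries scaled by the trimmed mean of M values, TMM). Eno1 rose most among them, 1.79-fold, followed by Ldha at 1.63-fold and Pgk1 at 1.49-fold. Ldhb, Pkm, Tpi1 and Gapdh rose 1.36-fold, 1.34-fold, 1.30-fold and 1.23-fold. Hk2, with an estimate of 1.64-fold, did not pass, and it was high in 2 hypoxic hearts and within or below the control range in the other hearts. Of all 14214 genes tested, 17.7% were called higher in hypoxia and 15.3% lower, and 0 of the 8 genes were called lower. In the most abundant of 10 equal abundance bins, which holds 6 of the 8, 29.5% of genes were called higher, against 19.4% in the bin of Hk2 and 18.2% in that of Tpi1. All 8 had an unadjusted p under 0.05 with a positive estimate, where 6305 of the 14214 genes had such a p in either direction. DESeq2 called 8 higher and 0 lower, and of the 14196 genes it tested, 2768 higher and 2411 lower. The number called among the 8 depended on scaling. It fell to 3 of 8 (Eno1, Ldha and Pgk1) with library totals alone or in FPKM. With the gene-length trend removed it fell to 5 of 8, where Tpi1, Gapdh and Ldhb were lost and Hk2 was gained. The median log2 fold change was 0.51 over the 8 genes and 0.01 over all genes tested. All 8 passed the filter on low counts. In bulk tissue a different number of cells of a type and a different amount of RNA per cell cannot be told apart.

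**Figure D1:**
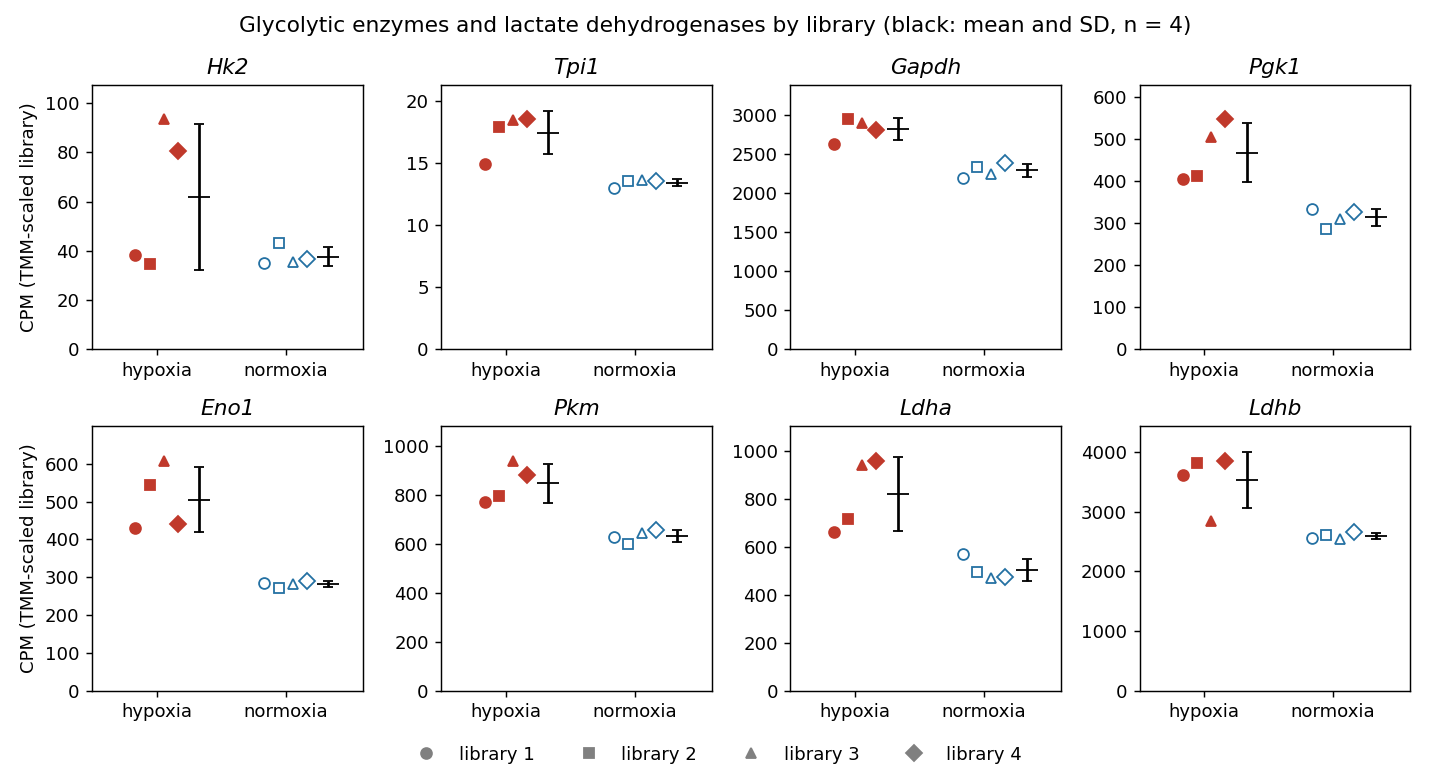
CPM (counts relative to the TMM-scaled library size) of each gene in each library, hypoxia left and normoxia right, with points for single rats and black bars for mean and SD (n = 4). All 4 hypoxia points lie above all 4 normoxia points for every gene but Hk2, where hypoxia libraries 1 and 2 lie within or just below the controls. Such a separation held for 17.3% of all genes tested. In FPKM the groups of Tpi1 and Gapdh overlapped as well.

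Promoter windows are shown for 4 of the genes, picked by their estimates and values. These are Ldha, the subunit gene with the larger fold estimate, its paralogue Ldhb, Eno1, which rose most, and Hk2, which differed between hypoxic hearts. A difference in response between Ldha and Ldhb was not shown. The sequences are RefSeq's for build GRCr8, not the build of the files, and were matched by symbol. Each runs 5′ to 3′ on the gene's strand, from 250 bases before an annotated start to 50 after it. Capitals mark ACGTG and GCGTG, the core letters of HIF-binding motifs, or their reverse complements.
Ldha, chr1:106507842-106508141, plus strand: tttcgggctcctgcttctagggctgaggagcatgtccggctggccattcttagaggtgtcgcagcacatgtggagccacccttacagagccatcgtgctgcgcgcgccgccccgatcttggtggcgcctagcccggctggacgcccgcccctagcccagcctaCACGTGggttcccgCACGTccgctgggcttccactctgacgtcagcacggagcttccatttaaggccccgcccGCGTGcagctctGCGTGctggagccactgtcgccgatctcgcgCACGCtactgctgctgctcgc
Ldhb, chr4:177177359-177177658, minus strand: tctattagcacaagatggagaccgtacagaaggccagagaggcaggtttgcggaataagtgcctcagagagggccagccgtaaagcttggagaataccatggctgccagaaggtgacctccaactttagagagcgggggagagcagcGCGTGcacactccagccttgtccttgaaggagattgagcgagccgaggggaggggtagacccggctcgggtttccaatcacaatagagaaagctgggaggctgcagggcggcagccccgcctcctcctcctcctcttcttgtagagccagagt
Eno1, chr5:166003111-166003410, plus strand, the downstream of 2 annotated starts: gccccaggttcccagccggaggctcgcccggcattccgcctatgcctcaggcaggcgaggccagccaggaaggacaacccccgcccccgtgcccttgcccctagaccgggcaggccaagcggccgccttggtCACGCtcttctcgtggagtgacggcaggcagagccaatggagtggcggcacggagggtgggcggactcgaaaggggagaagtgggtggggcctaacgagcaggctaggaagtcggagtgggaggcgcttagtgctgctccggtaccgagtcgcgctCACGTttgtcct
Hk2, chr4:116841226-116841525, minus strand: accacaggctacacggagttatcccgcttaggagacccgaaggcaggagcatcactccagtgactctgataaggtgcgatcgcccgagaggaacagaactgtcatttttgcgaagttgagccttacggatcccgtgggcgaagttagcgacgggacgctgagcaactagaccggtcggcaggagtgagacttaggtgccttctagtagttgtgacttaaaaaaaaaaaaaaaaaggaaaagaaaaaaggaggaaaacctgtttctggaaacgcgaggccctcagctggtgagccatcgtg
The Ldha window held 3 matches to ACGTG and 3 to GCGTG. The first 2 matches to ACGTG, which begin at positions −87 and −86 from the start, are the overlapping strands of a single palindrome, and the other begins at −73. The Ldhb window held 1 GCGTG, at −103, and 0 ACGTG. The Eno1 window shown held 1 match to each, with the GCGTG match at −118 and the ACGTG match at 39 after the start. The Hk2 window held neither. RefSeq's table had windows for 7 of the 8 genes, all but Pgk1. Eno1 had 2 windows, and the upstream one, not shown, held 0 ACGTG and 1 GCGTG. Of the 8 windows of these 7 genes, 3 held ACGTG (Ldha, Gapdh and the downstream Eno1 window) and 5 held GCGTG (the same, the upstream Eno1 window and Ldhb). Of all 33469 windows in the table, 19.3% held ACGTG and 29.7% held GCGTG on either strand, and 41.6% held at least 1 of the motifs. Counted by gene, with Eno1 counted once for its 2 windows, 4 of the 7 had at least 1 of them. The Gapdh window, not shown, held 1 match to ACGTG and 2 to GCGTG, and the windows of Tpi1 and Pkm held neither. The windows shown were picked by the genes' estimates and values, and a link between matches and response was not tested. These matches are descriptions of letters in a short window, and no binding was measured.

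Hk2 encodes hexokinase 2, which traps glucose in the cell by phosphorylation and is the insulin-responsive isoform of muscle. Its values were 38.4, 34.8, 93.3 and 80.7 CPM in hypoxia libraries 1 to 4, against 35.2, 43.1, 35.3 and 36.8 CPM in normoxia libraries 1 to 4. Hypoxia libraries 3 and 4 were above every control, library 1 lay inside the control range and library 2 just below it. On the log2 scale the change was estimated at 0.72 (95% interval 0.07 to 1.37, SE 0.29, adjusted p = 0.0842 in edgeR). Without hypoxia library 1 it was 0.88 (adjusted p = 0.0372) and without hypoxia library 2 it was 0.90 (adjusted p = 0.0229), so Hk2 was called without either of them. Without hypoxia library 3 the estimate was 0.45 (edgeR adjusted p = 0.210) and without hypoxia library 4 it was 0.56 (adjusted p = 0.196). Nor was Hk2 called without normoxia library 1, 2, 3 or 4 (edgeR adjusted p = 0.167, 0.115, 0.168 and 0.160). Of the 8 fits that left out 1 library, 2 thus called it. With hypoxia libraries 3 and 4 both left out the estimate was −0.05, and with libraries 1 and 2 both left out it was 1.20. These pairs follow the split in Hk2's own values, so both estimates only restate that split and carry no test. The ratio of the highest to the lowest hypoxic heart was 2.68, the widest of the 8 genes, against 1.23 between controls. DESeq2, which called Hk2 (log2 fold change 0.72, adjusted p = 0.0344), differed from edgeR here.

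Tpi1 encodes triosephosphate isomerase, which interconverts the triose phosphates made by aldolase. It was the least abundant of the called genes, at 14.9, 17.9, 18.4 and 18.5 CPM in hypoxia and 13.0, 13.5, 13.6 and 13.5 CPM in normoxia libraries 1 to 4. The groups did not overlap, and hypoxia library 1 was the closest to the controls. Tpi1 rose by 0.38 on the log2 scale (SE 0.09, adjusted p = 0.0113 in edgeR).

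Gapdh encodes glyceraldehyde-3-phosphate dehydrogenase, which makes the NADH that lactate dehydrogenase later uses and is often taken as a reference gene in expression assays. Its values were 2624, 2945, 2900 and 2806 CPM in hypoxia libraries 1 to 4 and 2192, 2342, 2250 and 2385 CPM in normoxia libraries 1 to 4. The groups did not overlap, since hypoxia library 1 was still above normoxia library 4. Its rise of 0.30 on the log2 scale (SE 0.09, adjusted p = 0.0250 in edgeR) was the smallest of the 8. Its call was lost without hypoxia library 2 (adjusted p = 0.0522) or without normoxia library 1, 2, 3 or 4 (adjusted p = 0.0751, 0.0543, 0.0774 and 0.0559), at estimates of 0.27 to 0.32. The estimate itself fell to 0.12 with library totals alone (adjusted p = 0.275) and to 0.08 with the length trend removed (adjusted p = 0.582).

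Pgk1 encodes phosphoglycerate kinase 1, which catalyses the earlier of the pathway's ATP-forming steps. It was at 406, 412, 506 and 547 CPM in hypoxia libraries 1 to 4, against 334, 287, 311 and 326 CPM in normoxia libraries 1 to 4. Every hypoxic heart was above every control, and libraries 3 and 4 were the highest. Pgk1 rose by 0.57 on the log2 scale (SE 0.11, adjusted p = 0.00489 in edgeR).

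Eno1 encodes alpha-enolase, the widely expressed enolase that makes phosphoenolpyruvate; adult muscle is known to use the beta form of another gene as well. It had 429, 544, 608 and 440 CPM in hypoxia libraries 1 to 4, against 286, 270, 283 and 290 CPM in normoxia libraries 1 to 4. The control hearts were nearly equal, and the lowest hypoxic heart stood well clear of them. The rise on the log2 scale was 0.84 (95% interval 0.58 to 1.11, SE 0.12, adjusted p = 0.00105 in edgeR). Unlike for Hk2 and Pgk1, hypoxia library 2 was among the 2 highest and library 4 among the 2 lowest.

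Pkm encodes the muscle-type pyruvate kinase, which completes glycolysis by making pyruvate and ATP; its splice forms are not separated in counts per gene. It was at 772, 793, 939 and 880 CPM in hypoxia libraries 1 to 4, against 627, 600, 642 and 658 CPM in normoxia libraries 1 to 4. The groups did not overlap, and Pkm rose by 0.42 on the log2 scale (SE 0.09, adjusted p = 0.00700 in edgeR).

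Ldha, the gene of the A subunit, had 663, 718, 943 and 960 CPM in hypoxia libraries 1 to 4 and 570, 494, 472 and 477 CPM in normoxia libraries 1 to 4. Hypoxia libraries 3 and 4 were highest, as they were for Hk2 and Pgk1. Ldha rose by 0.71 on the log2 scale (SE 0.14, adjusted p = 0.00424 in edgeR). Ldhb, the gene of the B subunit, had 3618, 3821, 2843 and 3853 CPM in hypoxia libraries 1 to 4 and 2562, 2613, 2545 and 2664 CPM in normoxia libraries 1 to 4. Here hypoxia library 3, the second highest for Ldha, was the lowest of its group and close to the controls. Ldhb rose by 0.45 on the log2 scale (SE 0.11, adjusted p = 0.0140 in edgeR).

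B subunit transcripts outnumbered A subunit transcripts in every heart. Per gene length, in FPKM (counts relative to gene-model length and to the library total), Ldha and Ldhb together came to 2955 ± 183 in hypoxia and 2391 ± 52.3 in normoxia (SD, n = 4 each), and the groups did not overlap. Ldha made up 13.3%, 13.6%, 21.7% and 17.3% of this sum in hypoxia libraries 1 to 4, against 15.7%, 13.7%, 13.5% and 13.0% in normoxia libraries 1 to 4. This share does not depend on how the libraries are scaled. It was above every control in hypoxia libraries 3 and 4 and inside the control range in libraries 1 and 2. The mean share was 16.5 ± 3.95% in hypoxia and 14.0 ± 1.19% in normoxia (SD, n = 4 each), a difference of 2.51 percentage points that did not pass (two-sided exact permutation p = 0.286, with 0.0286 the smallest the design can give). Without hypoxia library 3 the difference was 0.756 points, without hypoxia libraries 1 and 2 it was 5.54 points and without libraries 3 and 4 it was −0.515 points. The pairs left out follow the split in the shares themselves, so leaving them out only restates it. A shift in the balance of the 2 subunits was therefore not shown over these 4 and 4 rats, nor was its absence.

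**Figure D2:**
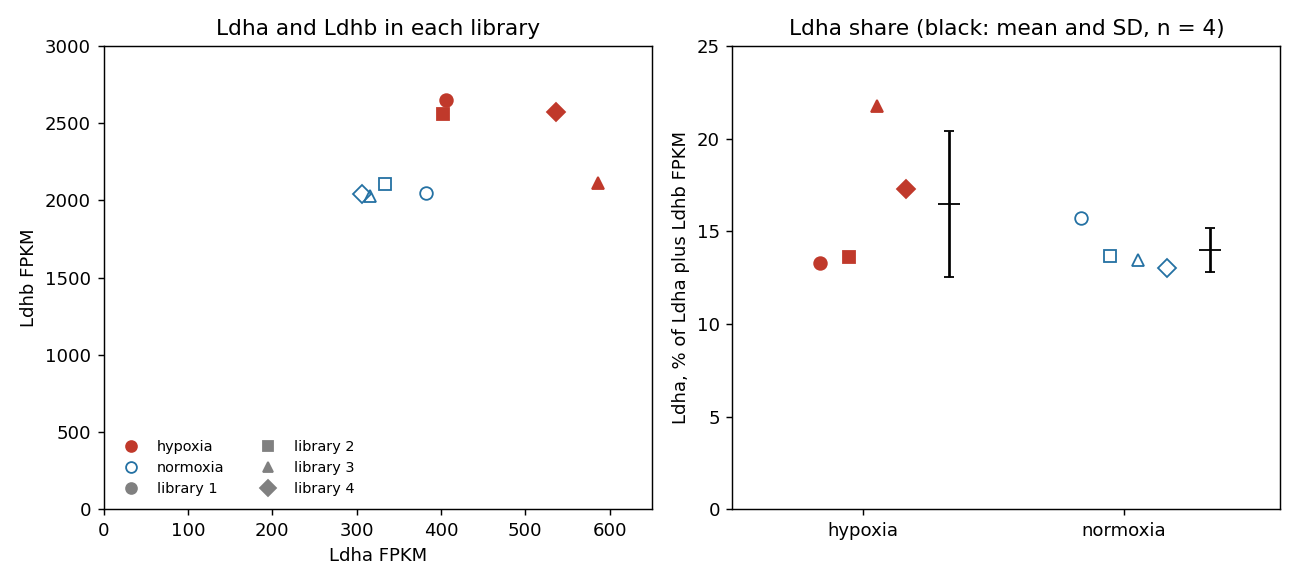
Left, FPKM of Ldha on the x axis and of Ldhb on the y axis in each library (filled for hypoxia, open for normoxia). Right, Ldha as a percentage of Ldha plus Ldhb FPKM, with black bars for mean and SD (n = 4). Hypoxia library 3 combines the highest Ldha, 586 FPKM, with an Ldhb of 2110 FPKM, just above the highest control at 2108 FPKM, which gives it the highest share of 21.7%.

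Levels per length spanned a wide range. In normoxia Gapdh averaged 2429 ± 77.4 FPKM and Ldhb 2057 ± 35.1 FPKM, with mean-level ranks over both groups of 20 and 21 among the 21549 listed genes. Ldha averaged 334 ± 33.7, Pkm 313 ± 7.36, Pgk1 197 ± 11.3, Eno1 158 ± 3.24, Tpi1 9.87 ± 0.264 and Hk2 7.36 ± 0.819 FPKM in normoxia (SD, n = 4 each). Among neighbours in this order, the normoxia ranges of Ldha and Pkm overlapped and those of the other pairs did not. In hypoxia the order of means was the same, from Gapdh at 2647 ± 163 and Ldhb at 2472 ± 245 FPKM to Tpi1 at 11.4 ± 1.06 and Hk2 at 10.8 ± 5.36 FPKM (SD, n = 4 each). In hypoxia the ranges overlapped for Gapdh and Ldhb, Ldha and Pkm, Pgk1 and Eno1, and Tpi1 and Hk2. The ratio of mean Eno1 to mean Tpi1 was 22.2 in hypoxia and 16.05 in normoxia. Together the 8 genes held 0.853 ± 0.0210% of counts in hypoxia and 0.708 ± 0.00892% in normoxia (SD, n = 4 each). Of their summed FPKM, Gapdh made up 38.5 to 43.2% in hypoxia and 42.8 to 44.9% in normoxia. Ldhb made up 31.7% in hypoxia library 3 and 39.5 to 41.0% in the other hypoxia libraries, against 37.3 to 37.5% in normoxia.

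**Figure D3:**
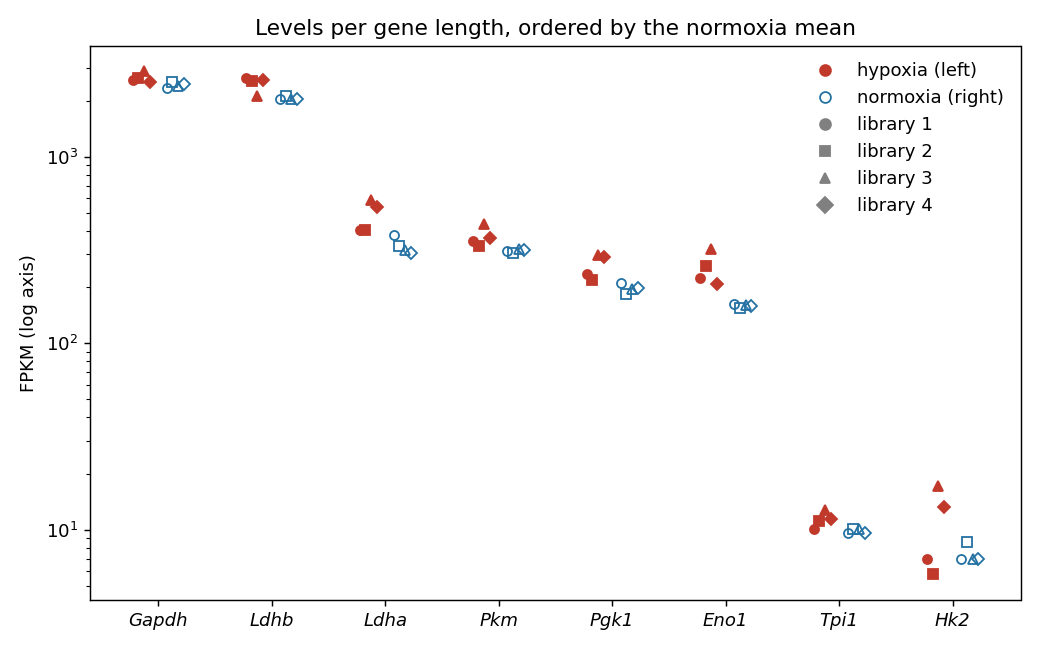
FPKM on a log axis for each gene and library, hypoxia left and normoxia right in each pair, with genes ordered by their normoxia mean. Gapdh and Ldhb stand above all other genes, 4 genes lie between 154 and 586 FPKM, and Tpi1 and Hk2 lie below 20 FPKM.

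Several of these genes have many annotated pseudogenes or like-named copies, whose similarity to them was not measured here, and whether reads that match several places were dropped, split or assigned is not stated in the sources used here. RefSeq's gene table for GRCr8 lists, by symbol, 81 pseudogenes of Gapdh, 31 of Eno1, 30 of Ldha, 19 of Pkm, 8 of Pgk1, 3 of Tpi1, 1 of Ldhb and 0 of Hk2. It also lists 10 genes named as Gapdh-like, 3 as Eno1-like, 2 as Tpi1-like and 1 each for Ldha, Pkm and Pgk1. The levels of all but Hk2 are uncertain to the extent that reads were lost to or gained from such copies, and this includes the low level of Tpi1.

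The size of the changes depended on how the libraries were made comparable. Scaling by library totals alone moved the median log2 fold change of all genes to −0.17 and called 10% of genes higher. All 8 estimates stayed positive, with a median of 0.33, but only Eno1 (0.67, edgeR adjusted p = 0.00337), Ldha (0.53, adjusted p = 0.0144) and Pgk1 (0.40, adjusted p = 0.0207) were then called. Gapdh was at 0.12 (95% interval −0.07 to 0.31). In FPKM, which also uses library totals, the hypoxia values of 5 genes lay wholly above the normoxia values, against 9.32% of genes tested: Pgk1, Eno1, Pkm, Ldha and Ldhb. With the TMM-scaled CPM this held for 7 genes, against 17.3% of genes tested. For Ldhb the separation in FPKM was bare, with hypoxia library 3 at 2110 FPKM and normoxia library 2 at 2108 FPKM.

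Gene-model length moved with the group difference too. Among tested genes in the same of 10 equal length bins, the median log2 fold change was 0.22 for the bin that holds Gapdh (1002 bp), where Gapdh was at 0.30. It was 0.16 for the bin of Ldhb (1340 bp), Tpi1 (1444 bp) and Ldha (1600 bp), and 0.09 for that of Pgk1 (1693 bp) and Eno1 (1891 bp). For Pkm (2140 bp) it was 0.03, and for Hk2 (5432 bp) it was −0.23. After subtraction of each library's trend with length, 14.9% of all genes and 5 of the 8 were called higher. These were Hk2 at 0.88 (edgeR adjusted p = 0.0388), Eno1 at 0.76, Ldha at 0.58, Pgk1 at 0.46 and Pkm at 0.38 (adjusted p = 0.00263, 0.0154, 0.0163 and 0.0114). Ldhb at 0.27, Tpi1 at 0.23 and Gapdh at 0.08 were no longer called (adjusted p = 0.0690, 0.125 and 0.582). Eno1, Ldha and Pgk1 were called higher in all 24 alternatives of scaling, tool, filter, block and left-out libraries, Pkm in 20, Tpi1 and Ldhb in 19, Gapdh in 12 and Hk2 in 5. The 24 include the fits without hypoxia libraries 1 and 2 and without hypoxia libraries 3 and 4. Those pairs follow the split in Hk2's own values and carry no test. Hk2 was called by DESeq2, with the length trend removed, and without hypoxia library 1, library 2 or both.

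**Figure D4:**
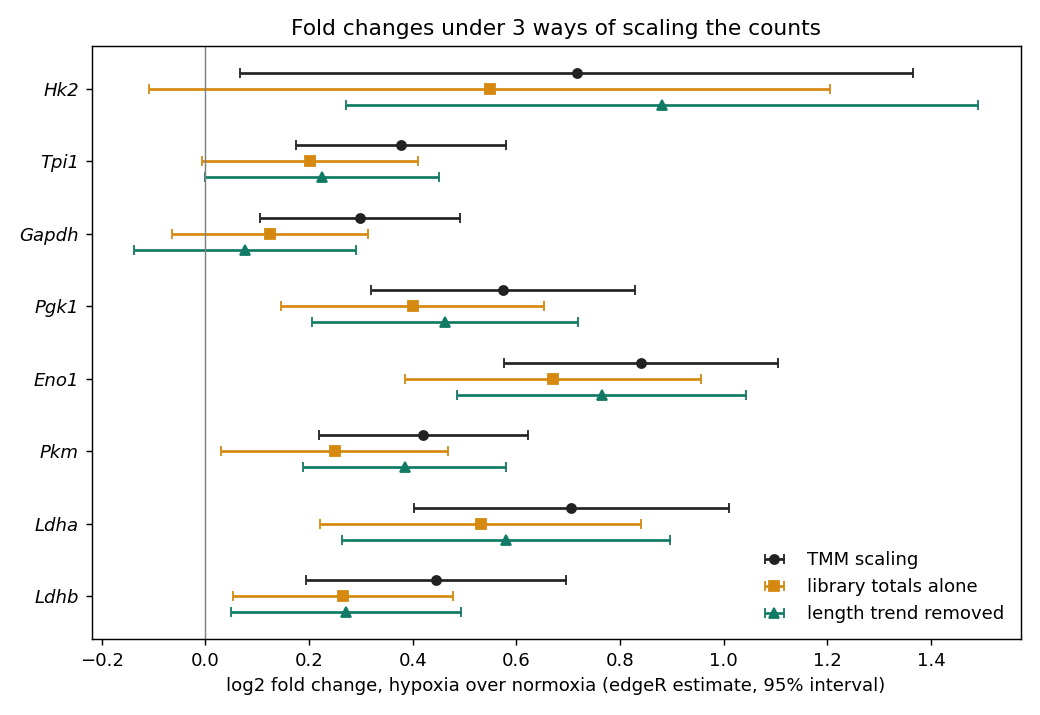
Log2 fold change of hypoxia over normoxia with its 95% interval from edgeR, for TMM scaling, library totals alone and TMM scaling with the length trend removed. The intervals of Pgk1, Eno1, Pkm, Ldha and Ldhb exclude 0 in all 3, those of Gapdh and Tpi1 only with TMM scaling, and that of Hk2 in all but library totals. An interval that excludes 0 is unadjusted and is not by itself a call.

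The hypoxic hearts differed from one another more than the controls did. The SD of log2 CPM was larger in hypoxia for 8 of the 8 genes, as it was for 78.7% of all genes tested. The coefficient of variation of Hk2 was 47.9% in hypoxia and 10.01% in normoxia, and that of Ldha was 18.6% in hypoxia and 9.02% in normoxia. For Eno1 it was 17.0% in hypoxia and 3.00% in normoxia. It was 13.4% in hypoxia and 2.07% in normoxia for Ldhb, and 5.04% in hypoxia and 3.82% in normoxia for Gapdh, which varied least of the 8 in hypoxia. Hypoxia library 1 was the lowest of its group for 6 of the 8 genes. Library 4 was the highest for 4 genes, library 3 for 3 and library 2 for 1. Libraries 3 and 4 led for Hk2, Tpi1, Pgk1, Pkm and Ldha, whereas libraries 2 and 3 led for Gapdh and Eno1, and libraries 2 and 4 for Ldhb. The genes thus did not rank the hypoxic hearts in a single order.

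**Figure D5:**
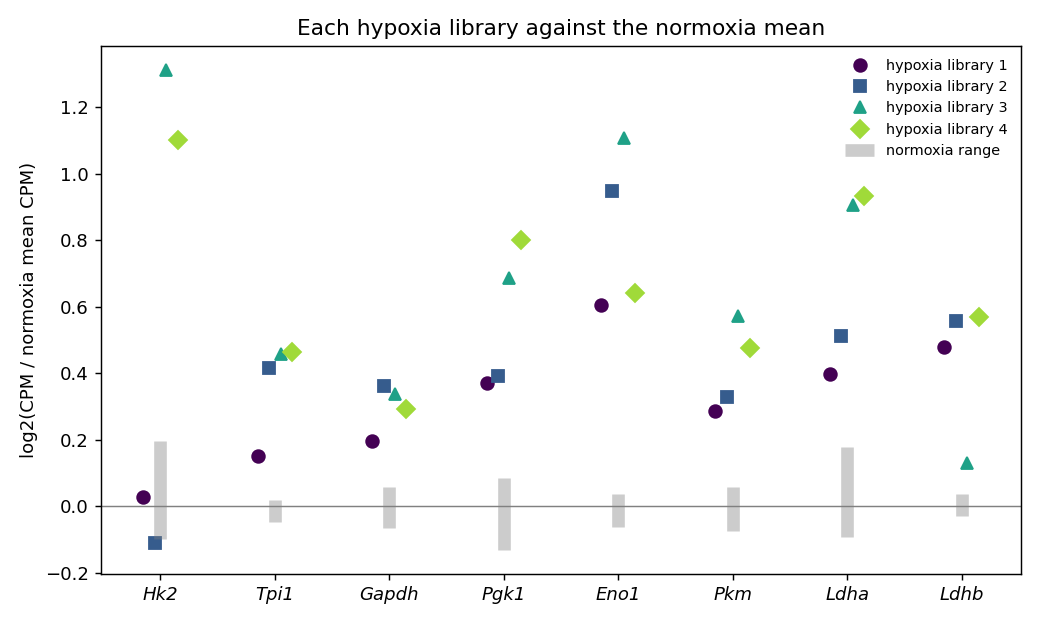
Log2 ratio of each hypoxia library's CPM to the normoxia mean, for each gene in pathway order, with a grey bar for the range of the 4 normoxia libraries. Hk2 spreads from −0.11 to 1.31, Ldhb drops to 0.13 in library 3, and Gapdh keeps within 0.20 to 0.36.

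Over the 8 libraries, the genes whose log2 CPM was most like the mean standardised profile of the 8 were sought among 7878 others with a mean of at least 10 CPM. The nearest were ENSRNOG00000002926 and ENSRNOG00000036684, each with a Pearson r of 0.992, given as a description over 8 points that fall into 2 groups. Their log2 fold changes were 0.96 and 1.09. The next gene in likeness, with an r of 0.991, had a log2 fold change of 0.30. Choosing by likeness to genes that mostly rose favours genes that differ between the groups, so these fold changes carry no test. These genes are unnamed in the files.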

How the data were processed

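The authors deposited whole-number counts per gene and FPKM values for each library, 1 table of each kind per rat. Per the submitters' processing notes, the tools were bcl2fastq, HTSeq 0.6.0, HISAT2 2.1.0 and Bowtie2 2.2.3, and the build was rn6. How multi-mapping reads were treated, the strand setting and the annotation release are not stated in the sources used here. Dividing count by FPKM and library total returned a whole gene-model length per gene, within 0.00469 bp, so the deposited FPKM holds counts scaled by length and library total only.

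Counts were fitted with edgeR 4.0.16 in R 4.3.3 (filterByExpr with a minimum count of 10, TMM, quasi-likelihood test, group as the only term), over 14214 genes. P-values were adjusted by Benjamini-Hochberg over all of them, and an adjusted p under 0.05 is a call. The SE comes from the test statistic, and log2 CPM used a prior count of 2. The Ldha share was compared by an exact permutation test over 70 assignments (scipy 1.17.1). Alternatives used limma 3.58.1 and DESeq2 1.42.0, and each library's trend with gene-model length was removed through offsets from a lowess fit (span 0.3).

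The rule that picks the 8 genes uses no measured value, but the choice of this pathway and of the lists was made with earlier results of these data known. The rule for named genes took the 8, up to 4 genes of each pathway list, and the genes most like the 8 in profile. The pathway and cell type lists, written by symbol, could not be matched to IDs and gave no values. Library totals of 26229304 to 32160710 counts set the precision: 3 counts, the limit that a count of 0 allows, are 0.0933 to 0.114 CPM, and cover counting error only. No pairing by replicate number was seen: the correlation of same-numbered libraries' deviations from their group means was −0.0847 to 0.0187. No correlation of different-numbered libraries is given beside these, so pairing was not settled.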

Additional observations from a re-analysis of the deposited data

Results flagged for a closer look

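Among 20 groups of 4 libraries looked at, 2 held a library far from the other 3, against about 5% of groups by chance. Both concerned Tpi1 and the lowest library of the group. Hypoxia library 1 was at 14.9 CPM, where the other hypoxia libraries were at 17.9 to 18.5 CPM. Normoxia library 1 was at 13.0 CPM, where the other normoxia libraries were at 13.5 to 13.6 CPM, a small distance in a group of little spread. Tpi1 was called higher in hypoxia without either of them, with log2 fold changes of 0.44 and 0.36 (edgeR adjusted p = 0.00318 and 0.0361).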

How the results depend on the processing

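Of 192 log2 fold changes of the 8 genes under alternatives, 160 kept direction and side of the threshold, 26 lost their call, 5 gained one and 1, an Hk2 estimate that was not called, changed sign. The 192 include the fits without pairs of hypoxia libraries, which follow Hk2's own values and carry no test. Causes were not tested except where scaling or sample number is the alternative itself. Library totals alone, log2(FPKM + 1), log2(FPKM + 0.1) and log2(FPKM + 1) with no filter tested 14214, 11809, 11809 and 21301 genes. Of these they called 1426, 1195, 1195 and 1108 higher and 3870, 3704, 3688 and 3548 lower, and each called 3 of the 8 genes higher. With TMM, 2516 of 14214 genes were called higher and 2177 lower, and 7 of the 8 higher. In the same order, uncalled estimates were 0.20, 0.18, 0.20 and 0.18 for Tpi1, 0.12, 0.12, 0.12 and 0.12 for Gapdh, 0.25, 0.24, 0.24 and 0.24 for Pkm, and 0.27, 0.26, 0.26 and 0.26 for Ldhb. With the length trend removed, Tpi1 (0.23), Gapdh (0.077) and Ldhb (0.27) lost their call and Hk2 (0.88) gained one. Gapdh also lost it with no filter on low counts (0.30) and with the replicate block (0.30, edgeR adjusted p = 0.0651). The block called 3841 of 14214 genes, 2038 of them higher, and called 6 of the 8 higher. It changed no other call among the 8, and gave the Ldha share an exact sign-flip p of 0.5, where 0.125 is the smallest possible. Hk2 was called by DESeq2 (0.72). It was at 1.20 without hypoxia libraries 1 and 2, a pair that follows its own values. It was at −0.046 without hypoxia libraries 3 and 4, where the difference in Ldha share was −0.515 points. Leaving out each library gave 0.45 to 0.90 for Hk2 and 0.27 to 0.33 for Gapdh, 0.756 to 3.57 points for the Ldha share, and 6 to 8 called genes of the 8. Of all genes, these fits called from 1809 of 14418 higher (without normoxia library 3) to 2554 of 14379 (without hypoxia library 3). The 8 genes' share was higher in hypoxia by 0.144 points of counts and by 0.0650 points of summed FPKM. Pathway lists could not be matched to IDs, so their alternatives were not run.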
